A study of Ovis aries with 3 samples.

Results

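The known sheep miRNAs oar-miR-23a, oar-miR-23b, and oar-miR-27a were examined along the sheep intestine, in small RNA libraries of duodenum (DU), cecum (CE), and colon (CO). The 3 miRNAs were taken by name from count files that list 822 miRNA entries, of which 146 are known sheep miRNAs. The animals were Small tailed Han ewes aged 11 months, with no treatment named, and the tissue is labelled as mucosal epithelium of the intestine, with the colon sampled at its proximal end. For each segment, RNA of the same 3 ewes was pooled into 1 library. No difference between libraries could therefore be compared with the spread between animals, and all intervals cover counting error only. In total, 14462675 reads were counted in DU, 15072945 in CE, and 13769740 in CO.

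A miRNA silences messenger RNAs by pairing with them, mainly through its seed, the bases 2 to 8 from its 5′ end. In mammals, miR-23, miR-27, and miR-24 are made together from a shared primary transcript, and vertebrate genomes hold a pair of such clusters, the miR-23a cluster (with miR-27a and miR-24-2) and the miR-23b cluster (with miR-27b and miR-24-1). These miRNAs are known for roles in blood vessels and muscle, and miR-27 also for roles in lipid and fat cell metabolism. In the RefSeq gene table of the assembly ARS-UI_Ramb_v3.0, MIR23A and MIR27A are direct neighbours on chromosome 5, before ZSWIM4. MIR23B lies on chromosome 2 within the span of AOPEP, the host gene of this cluster. That assembly is not the Oar_v4.0 assembly used by the authors, so positions are not given.

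The mature sequences in the count files are shown because the members differ from each other, and from their relatives, by few bases. The seed is in capitals, and positions are counted from 1 at the 5′ end.
oar-miR-23a: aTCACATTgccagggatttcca
oar-miR-23b: aTCACATTgccagggatt
novel_mir_321: aTCACATTgccagggattaccacg
oar-miR-27a: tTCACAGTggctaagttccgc
novel_mir_320: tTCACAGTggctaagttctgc
novel_mir_55: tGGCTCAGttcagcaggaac
The 18 nt of oar-miR-23b are identical to the first 18 nt of the 22-nt oar-miR-23a. An 18-nt read of this sequence therefore matches both entries, and how the authors assigned such reads is not given in the sources used here. The predicted entry novel_mir_321, which holds all of oar-miR-23b, differs from oar-miR-23a at the first base after the shared stretch (T19A). The predicted entry novel_mir_320 has the sequence of miR-27b and differs from oar-miR-27a by 1 base (C19T) in 21 nt. The predicted entry novel_mir_55 is contained in miR-24-3p, which is the same for both clusters. Over their first 8 bases, oar-miR-23a and oar-miR-27a differ at 2 positions (A1T and T7G), of which only the latter is in the seed.

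Counts were normalized to reads per 1000000 reads mapped to the genome, called normalized reads here. A small RNA read spans the mature miRNA, so no division by length was made. oar-miR-27a had 30294 reads in DU, 36615 in CE, and 27054 in CO. These were 1810.4 normalized reads (Wilson 95% interval 1790.1 to 1831), 2153 (2131 to 2175), and 1633 (1614 to 1653). It was the most abundant of the 3 members in each library, highest in CE and lowest in CO, and ranked 26, 23, and 26 among the known sheep miRNAs.

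oar-miR-23a, the partner of miR-27a on the same primary transcript, had 3357 reads in DU, 6397 in CE, and 3386 in CO. These were 201 normalized reads (194 to 208), 376 (367 to 386), and 204 (198 to 211). The CE library stood above both others, while the intervals of the DU and CO libraries overlapped. oar-miR-23b, the 18-nt entry of the other cluster, had 2920, 5096, and 3766 reads in DU, CE, and CO. These were 174 normalized reads (168 to 181), 299.7 (292 to 308), and 227 (220.2 to 235). The order was thus CE, CO, and DU, with no overlap of the intervals. oar-miR-23a exceeded oar-miR-23b in the DU and CE libraries and was below it in the CO library.

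**Figure D1:**
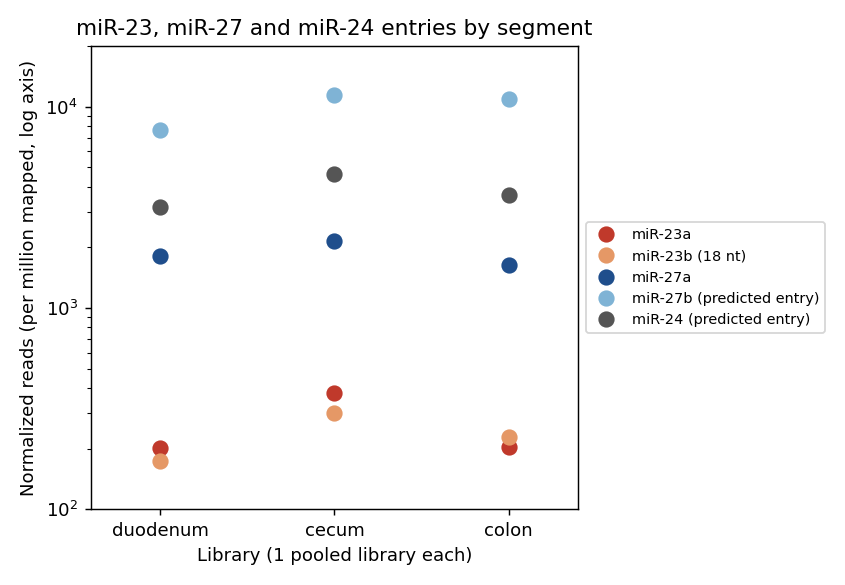
Normalized reads (reads per 1000000 mapped reads, log axis) of oar-miR-23a, oar-miR-23b, oar-miR-27a, and the predicted entries of miR-27b and miR-24 in DU, CE, and CO, with 1 point per pooled library and no error bar, since counting intervals are about the size of the points or smaller. Each of the 5 entries is highest in the CE library, and the points of oar-miR-23a and oar-miR-23b change places between the CE and CO libraries.

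Each pair of libraries was compared by the exact test of Audic and Claverie on read counts, the test of the study, which compares the 2 libraries and not the segments. The formula in its methods divides by all clean reads, whereas mapped reads were the library size here and clean reads an alternative. An entry was called at a fold change of 2 or more with a Bonferroni-corrected p-value below 0.01. All 3 members passed the filter of 1 normalized read in either library. With reads mapped to the genome as library size, 0 of the 3 members were called between the DU and CE libraries, where 36.5% of 348 entries were called. Likewise, 0 of 3 were called between the DU and CO libraries (33.9% of 363 entries) and between the CO and CE libraries (22.7% of 326 entries). Many of these calls were predicted entries, and of the known sheep miRNAs with at least 10 reads in all 3 libraries, 11.8%, 6.38%, and 2.13% were called in the same order. With clean reads as library size, 96, 101, and 67 entries were called in place of 127, 123, and 74, and again 0 of the 3 members.

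Between the DU and CE libraries, all 3 members were higher in CE. The log2 ratio of CE to DU was 0.91 for oar-miR-23a (exact 95% interval 0.85 to 0.97), 0.78 for oar-miR-23b (0.71 to 0.85), and 0.25 for oar-miR-27a (0.23 to 0.27). The first of these is a fold change of 1.88 and the last a fold change of 1.19. The miR-23 members thus differed more than miR-27a, and the interval of oar-miR-27a lay below both others. Among 93 known sheep miRNAs with at least 10 reads in all 3 libraries that were tested, the median log2 ratio was 0.27, against -0.31 over all 348 entries. Only 11 of the 92 other known miRNAs had a higher ratio than oar-miR-23a, while 47 had a higher ratio than oar-miR-27a. The call for oar-miR-23a depended on the library size. Its log2 ratio reached 1.03 with the edgeR TMM library size, 1.00 with DESeq2 size factors, and 1.27 with the sum of the counts without oar-miR-143, and it was called in all 3 settings. oar-miR-23b was called in the last of these, at 1.15.

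Between the DU and CO libraries, the members went apart. oar-miR-23b was higher in CO, with a log2 ratio of CO to DU of 0.38 (0.31 to 0.45, corrected p = 2.02e-24, exact Audic-Claverie test). oar-miR-23a had a log2 ratio of 0.03 (-0.04 to 0.10, corrected p = 1, exact Audic-Claverie test), so no difference was detected with mapped reads as library size. This depended on the library size, since the log2 ratio of oar-miR-23a was 0.13 with clean reads (corrected p = 0.0745, exact Audic-Claverie test), 0.18 with edgeR TMM (corrected p = 6.94e-05), and 0.47 without oar-miR-143 (corrected p = 1.19e-38). oar-miR-27a was lower in CO, with a log2 ratio of -0.15 (-0.17 to -0.13, corrected p = 2.08e-32, exact Audic-Claverie test), a direction that turned with the edgeR TMM library size (0.0082) and without oar-miR-143 in the library size (0.30). With clean reads, oar-miR-27a had a log2 ratio of -0.05 (corrected p = 0.0459, exact Audic-Claverie test), which does not pass the threshold of 0.01. The median of the 94 known sheep miRNAs was 0.22 (-0.19 over all 363 entries), above oar-miR-23a and oar-miR-27a and below oar-miR-23b. These log2 ratios share the DU library with those of CE to DU.

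Between the CO and CE libraries, all 3 members were again higher in CE. oar-miR-23a had a log2 ratio of CE to CO of 0.88 (0.82 to 0.94), and oar-miR-23b (0.34 to 0.46) and oar-miR-27a (0.38 to 0.42) both had 0.40. The median of the 94 known sheep miRNAs was 0.08, and that of all 326 entries -0.06. Of the 93 other known miRNAs, 1 had a higher ratio than oar-miR-23a, which was oar-miR-380-3p with 54 reads in CE and 27 in CO. This miRNA was named after its values were seen. oar-miR-23b and oar-miR-27a had 20 and 19 known miRNAs above them. The order of the members did not depend on the library size, which shifts all entries alike.

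**Figure D2:**
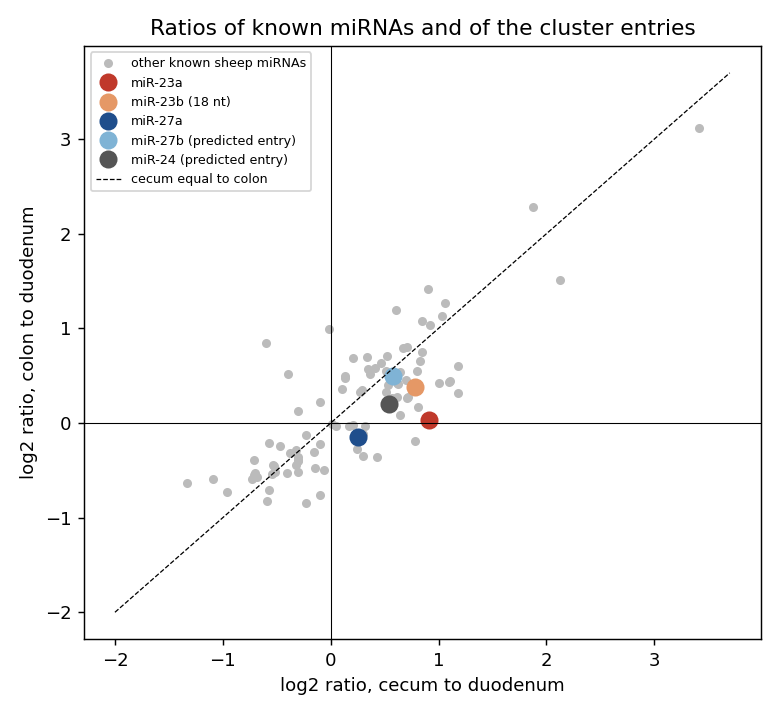
Log2 ratio of CE to DU (x axis) and of CO to DU (y axis) for the known sheep miRNAs with at least 10 reads in all 3 libraries (grey) and for oar-miR-23a, oar-miR-23b, oar-miR-27a, and the predicted entries of miR-27b and miR-24 (colour). Points below the dashed line are higher in CE than in CO, and oar-miR-23a lies farthest below it among the 5 entries, at 0.91 and 0.03.

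Partners of a cluster are cut from the same primary transcript, and the ratio of their reads was followed across the libraries. This ratio is taken within a library and does not depend on the library size. For each read of oar-miR-23a there were 9.02 reads of oar-miR-27a in DU (exact 95% interval 8.71 to 9.35), 5.72 in CE (5.57 to 5.88), and 7.99 in CO (7.71 to 8.28). The clustered miRNAs did not keep a fixed ratio, and the CE library had the lowest. On the log2 scale, the ratio of miR-27a to miR-23a was lower in CE than in DU, with CE minus DU at -0.66 (95% interval -0.72 to -0.59). CE minus CO was -0.48 (-0.55 to -0.42) and CO minus DU was -0.18 (-0.25 to -0.10). With the counts of oar-miR-23a and oar-miR-23b added up, the log2 ratio of miR-27a to miR-23 remained lowest in CE, at 2.27, 1.67, and 1.92 in DU, CE, and CO. This ratio takes miR-23 from both clusters but miR-27 from the miR-23a cluster only, so it is not a ratio of cluster partners.

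The other cluster was examined in the same way after the values above were seen, with the predicted entry of miR-27b. This entry was the most abundant of all entries with these seeds, with 128139, 194325, and 179643 reads in DU, CE, and CO, or 7657.5, 11427, and 10843 normalized reads. For each read of oar-miR-23b there were 43.9 reads of miR-27b in DU (42.3 to 45.5), 38.1 in CE (37.1 to 39.2), and 47.7 in CO (46.2 to 49.3). The CE library thus had the lowest ratio of miR-27 to miR-23 in both clusters, with CE minus DU at -0.20 on the log2 scale (-0.27 to -0.14) for the miR-23b cluster. In this cluster the CO library was above the DU library (0.12, 0.05 to 0.19), whereas in the miR-23a cluster it was below. The 18-nt oar-miR-23b is contained in oar-miR-23a, so the ratios of both clusters also depend on how shared reads were assigned. Whether the ratios of the clusters are independent of each other was not tested.

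The paralogs were compared next. For each read of oar-miR-23b there were 1.15 reads of oar-miR-23a in DU (1.09 to 1.21), 1.26 in CE (1.21 to 1.30), and 0.899 in CO (0.858 to 0.942). The ratio of miR-23a to miR-23b was higher in CE than in CO by 0.48 on the log2 scale (0.40 to 0.57) and higher in CE than in DU by 0.13 (0.04 to 0.22). oar-miR-27a had 0.236 reads for each read of miR-27b in DU (0.233 to 0.239), 0.188 in CE (0.186 to 0.191), and 0.151 in CO (0.149 to 0.153). CE minus CO was 0.32 on the log2 scale (0.30 to 0.35) and CO minus DU was -0.65 (-0.68 to -0.62). For both seeds, the entry of the miR-23a cluster therefore made up the least in the CO library against its paralog. Between DU and CE, the ratios went in opposite directions, with CE minus DU at -0.33 on the log2 scale (-0.35 to -0.30) for miR-27a to miR-27b. Since oar-miR-23b is contained in oar-miR-23a, the miR-23 ratio also depends on how shared reads were assigned, which was not tested. The longer form of miR-23b in novel_mir_321 had 48 reads in DU, 34 in CE, and 0 in CO, where 3 reads correspond to 0.181 normalized reads. The smallest count above 0 of any predicted entry was 5 reads, so smaller numbers may have been listed as 0. A listed 0 need not mean few reads, however. The predicted entry of miR-192 had 967314 reads in DU and 490567 in CE but was listed at 0 in CO.

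**Figure D3:**
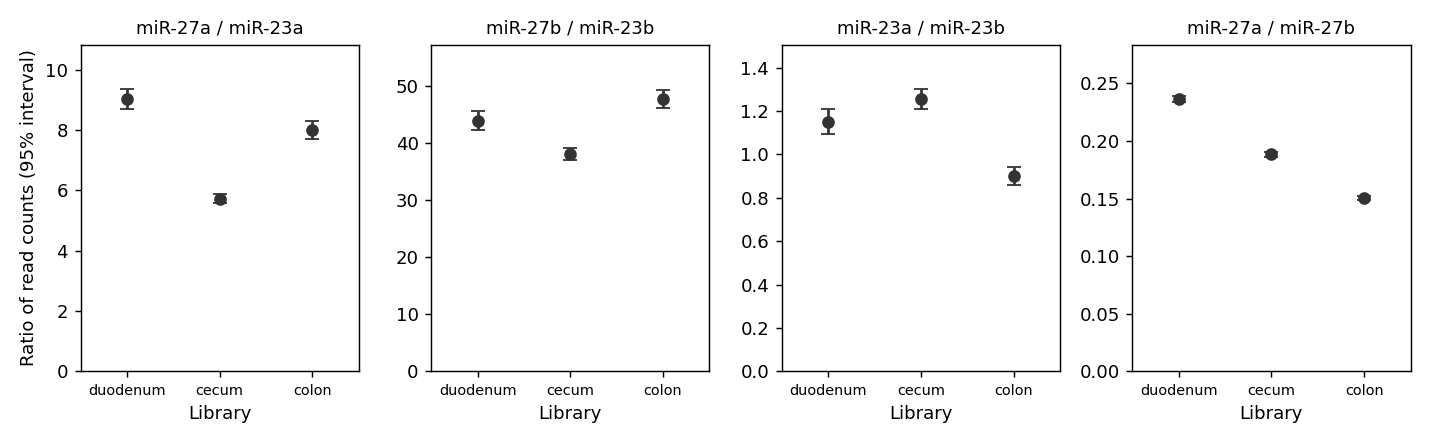
Ratio of the read counts of the named miRNAs in DU, CE, and CO, with exact 95% intervals that cover counting error only, and axes that start at 0. The miR-27a to miR-23a ratio is 9.02 in DU and 5.72 in CE, the miR-27b to miR-23b ratio is also lowest in CE, and both ratios between paralogs are lowest in CO.

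Added up by seed, the miR-23 entries held 378, 678, and 432 normalized reads in DU, CE, and CO, and the miR-27 entries held 9468, 13580.3, and 12476. The seed TCACATT of miR-23 was found in 3 entries of the files and the seed TCACAGT of miR-27 in 3 entries, all of them with sequences of these clusters. oar-miR-27a made up 19.1% of the miR-27 reads in DU (Wilson 95% interval 18.9 to 19.3%), 15.9% in CE (15.7 to 16.0%), and 13.1% in CO (12.9 to 13.2%). oar-miR-23a made up 53.1% (51.8 to 54.3%), 55.5% (54.6 to 56.4%), and 47.3% (46.2 to 48.5%) of the miR-23 reads. The pool with the miR-27 seed was thus mostly miR-27b. The pool with the miR-23 seed was nearly even between the entries oar-miR-23a and oar-miR-23b, a split that depends on how shared reads were assigned. From DU to CO, the miR-27 pool had a log2 ratio of 0.40, opposite in sign to that of oar-miR-27a alone (-0.15) with mapped reads as library size, but not with edgeR TMM or without oar-miR-143.

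Of 11 sequences of the clusters that were looked up, 6 had an entry of the same, a longer, or a shorter sequence, and these were 8 entries in all. The entry of miR-24, which both clusters encode, had 52928, 78193, and 60410 reads in DU, CE, and CO, or 3163, 4598, and 3646 normalized reads. Its log2 ratio was 0.54 from DU to CE, 0.21 from DU to CO, and 0.33 from CO to CE, so that like the members it was highest in CE. CE was the most frequent highest library, for 36 (38.3%) of the 94 known sheep miRNAs with at least 10 reads in all 3 libraries, members included. novel_mir_56, a shorter form of miR-27b, and novel_mir_57, a longer form of miR-23b-5p, had 0 reads in all 3 libraries. The sequences of miR-27a-5p, miR-27b-5p, and the 5p arms of miR-24 matched no entry. novel_mir_496, an overlapping form of miR-23b-5p that was named after its values were seen, was listed at 0 in DU and CE and had 30 reads in CO.

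The known sheep miRNAs with the most similar pattern were sought by the distance between the log2 ratios of CE to DU and CO to DU, over 93 other miRNAs and only 3 libraries. The nearest to oar-miR-23a were oar-miR-369-3p (distance 0.18), oar-miR-380-3p (0.25), oar-miR-382-5p (0.27), oar-miR-379-5p (0.31), and oar-miR-3959-5p (0.31). oar-miR-23b came in place 6 (0.38), and the cluster partner oar-miR-27a in place 27 (0.68). The nearest to oar-miR-23b were oar-miR-127 (0.11), oar-miR-379-5p (0.13), oar-miR-3959-5p (0.14), oar-miR-125b (0.16), and oar-miR-369-5p (0.17), with oar-miR-23a in place 21. The nearest to oar-miR-27a were oar-miR-376c-3p (0.06), oar-miR-30b (0.13), oar-miR-136 (0.13), oar-miR-21 (0.14), and oar-miR-30a-3p (0.14), with oar-miR-23a in place 41. No member was thus among the 5 nearest of another member. The distances do not take counting error into account. oar-miR-376c-3p had only 24, 30, and 22 reads in DU, CE, and CO, and oar-miR-380-3p had 31, 54, and 27, so their places are uncertain.

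The tissue markers among the known entries differed between the libraries as well. The epithelial miRNAs oar-miR-200a, oar-miR-200b, oar-miR-200c, and oar-miR-194 were abundant in every library and held 28477, 20415, and 33447 normalized reads in DU, CE, and CO, each of the 4 lowest in CE. Among them, oar-miR-200b had 4450, 4395, and 8835 normalized reads. Quantitative PCR of the study differed from its sequencing for oar-miR-200b, with a relatively high level in the duodenum, so the CO value of this sum is uncertain. The smooth muscle and mesenchymal miRNAs oar-miR-143, oar-miR-133, and oar-miR-199a-3p held 278817, 432455, and 401375 normalized reads, nearly all of them oar-miR-143. Of these 3, oar-miR-199a-3p was not higher in CE or CO than in DU. oar-miR-133, a miRNA of muscle, had 236, 534, and 294 normalized reads, so that it was highest in CE, like oar-miR-23a. oar-miR-150 of lymphocytes had 289, 149, and 175. Among the predicted entries of epithelial markers, that of miR-215 had 55441, 435, and 4830 normalized reads, that of miR-141 had 87.6, 62.3, and 129, and that of miR-192 had 57806 and 28847 in DU and CE but was listed at 0 in CO. The endothelial marker miR-126 and the markers miR-145, miR-1, miR-223, and miR-142-5p had no entry that equals, contains, or is contained in the sequence listed by the study, and the entry of miR-451 had 0 reads in all 3 libraries. Their part in the differences of the miR-23 and miR-27 members was not tested, and in pooled tissue fewer cells of a type and less RNA per cell cannot be told apart.

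**Figure D4:**
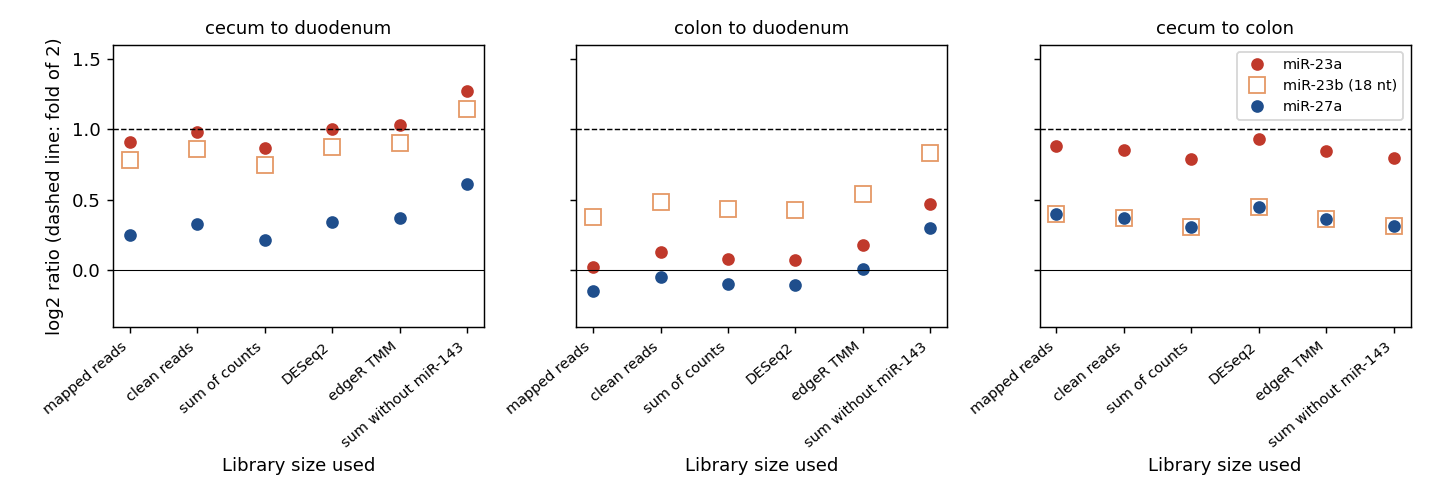
Log2 ratio of oar-miR-23a, oar-miR-23b, and oar-miR-27a between libraries under 6 library sizes, with a dashed line at a fold change of 2. From DU to CE, oar-miR-23a lies at 0.91 with mapped reads and at 1.03 with edgeR TMM, and in the panel of cecum to colon the points of oar-miR-23b (open squares) and oar-miR-27a coincide.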

How the data were processed

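The authors pooled total RNA of 3 ewes per segment, removed low-quality reads, adapter contaminants, polyA reads, and reads under 18 nt, and mapped the clean reads to Oar_v4.0 with SOAP. Bowtie is named in the submitters' processing notes. Known miRNAs were identified by BLAST against miRBase, without mismatch to the precursor, and further miRNAs were predicted with miReap. The deposited files hold raw read counts per miRNA entry, without normalization. These were divided by the reads mapped to the genome that the study states for each library, per 1000000. The formula in the methods of the study names clean reads instead, but the normalized values in its supplementary list of differentially expressed miRNAs follow from mapped reads, so clean reads were taken as an alternative. The counts in the files made up 86.4%, 88.6%, and 83.1% of these mapped reads in DU, CE, and CO.

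An entry was tested if either library reached 1 normalized read, with the Audic-Claverie test (scipy 1.17.1) and a doubled smaller tail. For log2 ratios, 0 was set to 0.01 normalized reads. Intervals of log2 ratios came from the exact binomial split of the reads, and differences of ratios from the 4 counts. The implementation was tested on simulated data. With 1 library per segment, no test against replicates could be made, and edgeR 4.0.16 and DESeq2 1.42.0 served only as alternatives. The entries named were the members, entries that share at least 18 bases by containment with a sequence of the clusters, and the 5 known miRNAs nearest in pattern. Sequences of conserved miRNAs were taken from the lists of the study. The members, lists, and tests were chosen with earlier results of these data known. Marker miRNAs were linked by name or by sequence.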

Additional observations from a re-analysis of the deposited data

How the results depend on the processing

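For each pair of libraries, 12 alternatives were computed. All 3 members kept their direction from DU to CE and from CO to CE in each setting that gave a value. The filters, the correction for multiple testing, and edgeR's exact test leave the log2 ratio of a member as it is. Only the library sizes, the added read, and the sums of nested entries could change it, and the sums not for oar-miR-27a. From DU to CE, oar-miR-23a passed the fold change of 2 with DESeq2 size factors (1.00), edgeR TMM (1.03), and the sum of the counts without oar-miR-143 (1.27), and oar-miR-23b only with the last (1.15). From DU to CO, oar-miR-27a reversed with edgeR TMM (0.0082) and without oar-miR-143 (0.30). Relative to mapped reads, the library size without oar-miR-143 shifts every log2 ratio by 0.37 from DU to CE and by 0.45 from DU to CO, edgeR TMM by 0.12 and 0.16, and clean reads by 0.08 and 0.10. The numbers of called entries were 127, 123, and 74 for DU and CE, DU and CO, and CO and CE, and 96, 101, and 67 with clean reads. At least 10 reads in both libraries left 48, 35, and 15. With edgeR's exact test and a biological coefficient of variation set to 0.4, 38, 40, and 31 were left, and set to 0.2, 76 for DU and CE. No member could be called there, since the fold change with mapped reads, below 2 for each member, was also required. In edgeR's exact test, no member had a corrected p-value below 0.01 at either setting. Adding up entries with nested sequences left 44 for CO and CE. Without oar-miR-143 in the library size, the calls higher in CE and in DU went from 42 and 85 to 74 and 59, and those higher in CO and in DU from 50 and 73 to 89 and 62. The cause was not tested. The log2 ratio of miR-27a to miR-23a was 3.17, 2.52, and 3.00 in DU, CE, and CO, and 2.27, 1.67, and 1.92 with oar-miR-23b added to miR-23a, or 2.26, 1.67, and 1.92 with all nested entries added up. Nested entries place oar-miR-23a and oar-miR-23b in 1 sum, so their ratio could not be computed there. Adding novel_mir_321 to oar-miR-23b, an alternative chosen after seeing the data, left each miR-23a to miR-23b ratio within its interval. No paired analysis was possible because each segment had 1 library.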
